A study of Mus musculus with 16 samples.

Results

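The antisense oligonucleotides ASO 445236 and ASO 190401, known here only by these code names, were set against each other in the quadriceps muscle of one mouse model. The comparison rested on 4 arrays of HSALR mice given ASO 445236 and 4 arrays of HSALR mice given ASO 190401, which were chosen by their labels and make up 8 of the 16 arrays of the series. It covered 12364 of 25697 probes, kept because their detection p, the scanner's measure of signal over background, was under 0.05 on at least 4 of the 16 arrays. These probes stood for 8725 named genes. The other 8 arrays came from HSALR mice given saline (4 arrays) and from wild-type (WT) mice given saline (4 arrays). HSALR mice are transgenic for human skeletal actin with a long CUG repeat and were kept on the FVB/n background, and the WT group lacks the transgene. All groups were adult mice injected under the skin for 4 weeks, and 100 ng of total RNA from each muscle sample was labelled for an Illumina bead array. The dose and the sequence of the oligos are not given in the sources used here. Whether every sample was a separate animal is not stated in the labels, and p-values therefore reflect only how much these arrays vary.

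In myotonic dystrophy, RNA with an expanded CUG repeat is kept in the nucleus, where it binds muscleblind proteins and so disturbs splicing. The human skeletal actin gene is active in skeletal muscle fibres, and HSALR mice therefore carry repeat RNA there and develop myotonia. Antisense oligonucleotides are short synthetic nucleic acids that bind a complementary RNA. Whole muscle holds fibres together with macrophages, fibroblasts, fat cells and vessels. In such RNA, more cells of a type and more RNA per cell cannot be told apart.

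The layout of the arrays limits the comparison. HSALR saline and ASO 445236 lay on chip 1, while WT saline and ASO 190401 lay on chip 2. In the direct difference, ASO 445236 minus ASO 190401, chip and oligo cannot be told apart. The same holds for every comparison of ASO 190401 with HSALR saline below, which also crosses chips. A constant offset between the chips would enter the direct difference and the difference HSALR saline minus WT saline with the same sign. It cancels in a within-chip contrast, the change from HSALR saline to ASO 445236 minus the change from WT saline to ASO 190401. That contrast in turn contains the saline difference with its sign turned, so it does not measure the oligos alone. Both values are given below. Values are log2 intensities, differences are ASO 445236 minus ASO 190401 on the log2 scale, and values after ± are standard errors unless marked SD. A gene was called at a limma adjusted p under 0.05 over all 12364 probes, each group had n = 4, and each gene was read from its brightest probe.

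Detection and signal were compared between the 2 groups of arrays first. Between 11157 and 11700 probes were detected per array under ASO 445236 and between 11113 and 11454 under ASO 190401 (exact permutation test, two-sided, p = 0.971). The raw 75th percentile of intensity was 146 ± 8.91 (SD, n = 4) and 163 ± 22.9 (SD, n = 4), an exact two-sided permutation p of 0.2 where 0.0286 is the smallest this design allows. Without ASO 190401 replicate 4 the same exact permutation test gave p = 0.0286. Correlations ran from 0.9827 to 0.9898 among arrays of ASO 445236, from 0.9843 to 0.9907 among those of ASO 190401, and from 0.9776 to 0.9843 between the oligos. The muscle genes Acta1, Ckm, Myh4, Mylpf, Tnnt3 and Des were detected on all 16 arrays. With 4 arrays a group, precision is limited by their number.

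The proximal promoters of 5 genes that recur below are shown because they represent the groups of genes that differed: Wfdc17, Plek and Lyz2 for macrophage genes, Lep for fat and Actc1 for muscle. Each is the 250 bases before the gene's first listed start in RefSeq, GRCm38.p6, read 5′ to 3′ on the strand of the gene. Capitals mark GAGGAA on either strand (the core of the site of PU.1, a transcription factor of myeloid cells) in the first 3, TTGCGCAA (a site of C/EBP factors, regulators of fat cells) in Lep, and the CArG box (the site of serum response factor) in Actc1.
Wfdc17: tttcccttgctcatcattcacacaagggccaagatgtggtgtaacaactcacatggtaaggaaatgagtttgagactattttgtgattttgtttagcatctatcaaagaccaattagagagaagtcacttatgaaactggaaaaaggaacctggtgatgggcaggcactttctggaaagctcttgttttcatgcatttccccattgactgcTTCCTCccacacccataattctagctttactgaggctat
Plek: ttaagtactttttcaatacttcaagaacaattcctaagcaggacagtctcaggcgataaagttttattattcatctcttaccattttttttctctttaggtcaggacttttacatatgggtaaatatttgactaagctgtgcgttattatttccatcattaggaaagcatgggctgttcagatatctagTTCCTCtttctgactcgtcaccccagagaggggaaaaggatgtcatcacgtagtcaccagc
Lyz2: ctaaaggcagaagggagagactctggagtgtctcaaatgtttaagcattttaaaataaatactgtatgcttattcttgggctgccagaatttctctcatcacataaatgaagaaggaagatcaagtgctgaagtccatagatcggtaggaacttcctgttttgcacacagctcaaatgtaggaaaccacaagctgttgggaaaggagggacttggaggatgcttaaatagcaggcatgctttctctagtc
Lep: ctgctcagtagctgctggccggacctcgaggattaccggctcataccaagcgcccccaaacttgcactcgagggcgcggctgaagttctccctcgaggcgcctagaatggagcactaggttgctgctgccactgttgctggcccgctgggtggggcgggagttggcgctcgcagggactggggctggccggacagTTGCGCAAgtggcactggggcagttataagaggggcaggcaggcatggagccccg
Actc1: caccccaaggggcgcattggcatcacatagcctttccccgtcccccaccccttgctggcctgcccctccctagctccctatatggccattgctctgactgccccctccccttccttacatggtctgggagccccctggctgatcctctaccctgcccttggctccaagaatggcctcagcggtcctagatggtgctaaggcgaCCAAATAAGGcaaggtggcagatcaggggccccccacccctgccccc
The windows lie at chr11:83703806-83704055 on the plus strand (Wfdc17), chr11:17008719-17008968 on the minus strand (Plek), chr10:117282273-117282522 on the minus strand (Lyz2), chr6:29059971-29060220 on the plus strand (Lep) and chr2:114052876-114053125 on the minus strand (Actc1). GAGGAA lay 39 to 34 bases before the start of Wfdc17 and 61 to 56 before that of Plek, both on the strand opposite the gene, and these letters are not in the Lyz2 window. It was held by 23.1% of 27025 promoter windows of this length, TTGCGCAA by 0.17% and the CArG box by 1.4%. The C/EBP site lay 55 to 48 bases before the start of Lep and the CArG box 47 to 38 before that of Actc1. The longer form GAGGAAGT, held by 2.44% of windows, contains GAGGAA. A match describes letters and shows no binding.

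Between the oligos, 243 of 8725 genes were called (2.79%), of which 157 were higher under ASO 445236 (1.8%) and 86 were lower (0.986%). At the level of probes 313 were called (2.53%), 199 higher (1.61%) and 114 lower (0.922%). At least 2-fold differences were seen for 44 of the higher and 12 of the lower genes, and the median difference was 0.80 among the higher and -0.63 among the lower. In 226 of the 243 called genes the 4 arrays of one oligo all lay above the 4 of the other, against 4.96% of all genes with ASO 445236 above and 4.95% with ASO 190401 above. The calls were made on the same arrays, so a lack of overlap in called genes is no separate support. Of 76 other probes of called genes, 68 differed in the same direction and 23 were called as well. The genes called higher included macrophage genes such as Lyz2, extracellular matrix genes such as Col3a1 and fat-cell genes such as Lep, and those called lower included Socs2, Ankrd1 and Cdkn1a. The counts rested in part on single arrays: without ASO 445236 replicate 4 there were 64 higher and 33 lower genes, without ASO 190401 replicate 2 there were 71 and 46, and without ASO 190401 replicate 4 there were 74 and 42. The lower count was 48, 55 and 53 without ASO 445236 replicate 3, ASO 190401 replicate 1 and ASO 190401 replicate 3.

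**Figure D1:**
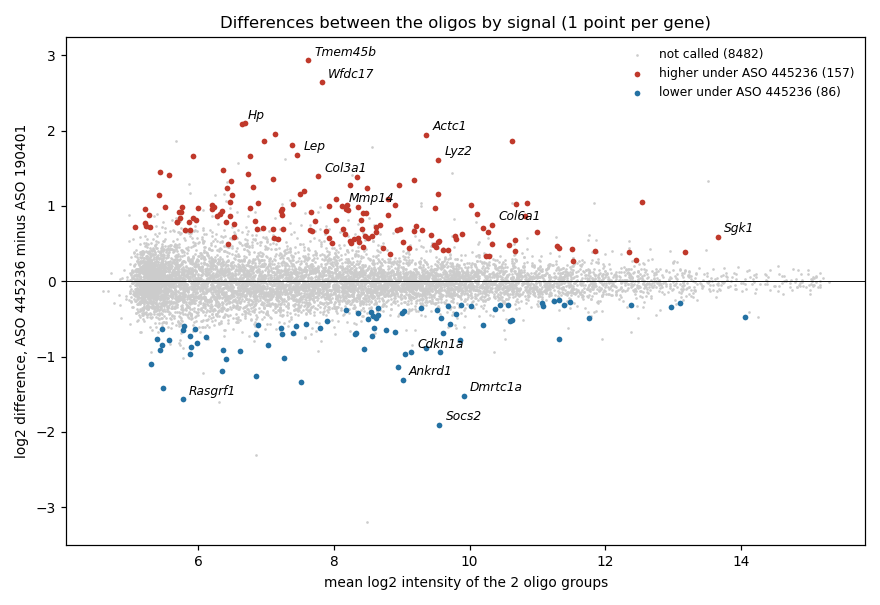
Each point is 1 of 8725 genes, with the mean log2 intensity of the 2 oligo groups on the x axis and the log2 difference ASO 445236 minus ASO 190401 on the y axis. Red marks the 157 genes called higher, blue the 86 called lower and grey the rest. Tmem45b and Wfdc17 lie highest among the called genes and Socs2 lies lowest.

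Macrophage genes were the list with the highest share of called members. Of 30 myeloid and macrophage markers 18 were measured, and 10 were called higher under ASO 445236 and 0 lower. They were Fcgr3, Fcgr2b, Lyz1, Lyz2, Laptm5, Adgre1, Cd53, Mrc1, Ctss and Ms4a7. At an unadjusted limma p under 0.05, 12 were higher and 0 lower, where 8.7% of all genes were higher and 8.56% lower (17.3% in either direction). The median difference over the 18 was 0.97, against -0.016 over all genes. This count fell to 2 without ASO 445236 replicate 1, ASO 445236 replicate 4, ASO 190401 replicate 2 or ASO 190401 replicate 4, to 4 without ASO 190401 replicate 3 and to 6 without ASO 445236 replicate 3. It was 4 with the authors' deposited processed values, 5 without an intensity trend in the fit, 6 with position on the chip as a covariate and 1 at an adjusted p under 0.01. The mean log2 level of the 18 markers was 7.92, 7.34, 7.44 and 7.80 on the ASO 445236 arrays and 7.11, 6.67, 6.97 and 6.75 on the ASO 190401 arrays. The lowest ASO 445236 array thus lay above the highest ASO 190401 array. HSALR saline arrays lay between 6.18 and 6.80 and WT arrays between 6.63 and 7.70. Among the listed markers that were not measured, Ptprc, Itgam, Itgax, Fcer1g, Ms4a6c, Cybb, Fcgr1 and C5ar1 were detected on 0 of 16 arrays. Cx3cr1 was detected on 3, and the bead array has no probe named for Cd68, Csf1r or Mpeg1.

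Wfdc17, a secreted protein made by activated macrophages, had the second largest difference of all called genes. Its levels were 9.87, 8.77, 8.87 and 9.07 under ASO 445236 and 6.80, 6.30, 6.89 and 6.02 under ASO 190401. The lowest ASO 445236 array lay well above every ASO 190401 array, and the difference of 2.64 ± 0.31 is 6.24-fold (adjusted p = 0.000157). HSALR saline arrays stood lower still, at 5.94, 5.51, 4.89 and 4.99, and WT arrays at 5.24, 6.17, 6.78 and 6.0. Against HSALR saline, Wfdc17 was thus higher by 3.81 ± 0.31 under ASO 445236, on the same chip, and by 1.17 ± 0.31 under ASO 190401, across chips. Both passed the test (limma adjusted p = 1.26e-07 and 0.0154). The within-chip contrast was 3.35 ± 0.43 (adjusted p = 3.36e-05).

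Ccl8, a chemokine that attracts monocytes, followed the same order of groups. Its levels were 9.08, 7.96, 7.98 and 8.15 under ASO 445236 and 6.83, 6.0, 6.80 and 6.31 under ASO 190401, and it was detected on 0 of 4 HSALR saline arrays. The groups did not overlap, and the difference was 1.81 ± 0.29 (limma adjusted p = 0.00259). With the authors' deposited processed values it was 1.84, with a limma adjusted p of 0.209. Over 16 measured chemokines and chemokine receptors, Ccl8 was the 1 member called (2 without ASO 445236 replicate 2, 3 with array weights and 0 with the authors' deposited processed values), and the median difference was 0.23.

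Lyz2, lysozyme M of macrophages and neutrophils, stood at 10.65, 9.98, 10.38 and 10.38 under ASO 445236 and at 9.18, 8.52, 8.44 and 8.79 under ASO 190401. No array of one group entered the range of the other, and the difference was 1.61 ± 0.33, or 3.06-fold (limma adjusted p = 0.0132). A second Lyz2 probe gave 1.55 ± 0.29. Against HSALR saline, Lyz2 differed by 1.94 ± 0.33 under ASO 445236 (adjusted p = 0.000588) and by 0.32 ± 0.33 under ASO 190401 (adjusted p = 0.579).

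Fcgr3, an activating receptor for immunoglobulin G, was the member of the marker list with the smallest p. It reached 7.74, 7.04, 7.29 and 7.52 under ASO 445236 against 6.74, 5.86, 6.49 and 6.37 under ASO 190401, 5.97 to 6.06 on 3 HSALR saline arrays with 5.71 on the other, and 7.08, 7.35, 7.73 and 7.17 on WT arrays. The ASO 445236 arrays thus shared the range of the WT arrays, while the ASO 190401 arrays lay below both. The difference between the oligos was 1.04 ± 0.19 (limma adjusted p = 0.00658), and 2.43 ± 0.27 within chips (adjusted p = 5.87e-06). Plek, or pleckstrin, a protein kinase C substrate of blood cells, was detected on 4 of 4 ASO 445236 arrays and on 1 of 4 ASO 190401 arrays, with a difference of 1.66 ± 0.21 (limma adjusted p = 0.000369). Since most ASO 190401 values of Plek lay below background, the size of this difference is uncertain, and with the authors' deposited processed values it was 2.71 (adjusted p = 0.074).

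The next list joined phagocytosis, lysosome and foam-cell genes of macrophages, with Wfdc17 among them. Of its 14 measured members 5 were called higher (Wfdc17, Ctsk, Lgals3, Trem2 and Ctsb) and 0 lower, where 1.8% and 0.986% of all genes were. The list's median difference was 0.35, and 7 members were higher and 0 lower at an unadjusted limma p under 0.05. The count of calls was 3 without ASO 445236 replicate 4 and at an adjusted p under 0.01. Ctsk, or cathepsin K, a protease that degrades collagen, was higher by 1.28 ± 0.18 (limma adjusted p = 0.000624) and by 1.21 ± 0.25 within chips (adjusted p = 0.00265). Lgals3, or galectin-3, stood at 10.42 on 3 arrays and 10.83 on the other under ASO 445236, and between 9.43 and 9.63 under ASO 190401, a difference of 1.01 ± 0.18 (adjusted p = 0.00547). Its within-chip contrast was 0.35 ± 0.25 and did not pass the test (adjusted p = 0.408). Complement had 3 of 9 measured genes called higher (C4b, C1qa and Serping1), a count that was 0 without ASO 445236 replicate 4 or ASO 190401 replicate 2 and 1 without ASO 445236 replicate 1 or ASO 190401 replicate 1. It was 5 with array weights and 0 at an adjusted p under 0.01. At an unadjusted limma p under 0.05, 6 of the 9 complement genes were higher and 0 lower, where 8.7% of all genes were higher.

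The other immune lists held 0 to 2 calls each, where 1.8% of all genes were called higher and 0.986% lower. Of 10 measured genes of antigen presentation 1 was called higher, H2-DMa, which helps to load peptides onto class II molecules. The list's median was 0.55, higher than that of the phagocytosis list, and 5 members were higher and 0 lower at an unadjusted limma p under 0.05. Its count of calls was 0 without any of 7 of the 8 oligo arrays, with median scaling, with the authors' deposited processed values, without an intensity trend, with position on the chip as a covariate or at an adjusted p under 0.01, and 4 with array weights or with the 8 oligo arrays alone. Of 11 measured innate sensors and NF-kB genes 2 were called higher (Tnfaip3, an inhibitor of NF-kB, and Tlr13, an endosomal receptor), with a median of 0.24, and 4 were higher and 0 lower at an unadjusted limma p under 0.05. That count was 1 without ASO 445236 replicate 1, 2 or 3 or ASO 190401 replicate 1 and 0 without any of the other 4 oligo arrays. It was 1 with position on the chip as a covariate, and 0 with the authors' deposited processed values, with probes detected on all 8 oligo arrays or at an adjusted p under 0.01. Of 15 measured interferon response genes 1, Ifi27l2a, was called higher, and the list's median was -0.19, so its call and its median had opposite signs. The count was 0 without any of 5 of the 8 oligo arrays, without an intensity trend or at an adjusted p under 0.01. Of 7 measured neutrophil and mast cell markers 0 were called, and 0 had an unadjusted limma p under 0.05, and of 19 lymphocyte markers 0 were measured. Hal, histidine ammonia-lyase, the first enzyme of histidine breakdown, was in none of the lists and stood between 7.75 and 8.28 under ASO 445236 against 5.36 to 6.77 under ASO 190401 (difference 1.86 ± 0.31; limma adjusted p = 0.00364). With the authors' deposited processed values its difference was 2.19 (limma adjusted p = 0.129).

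**Figure D2:**
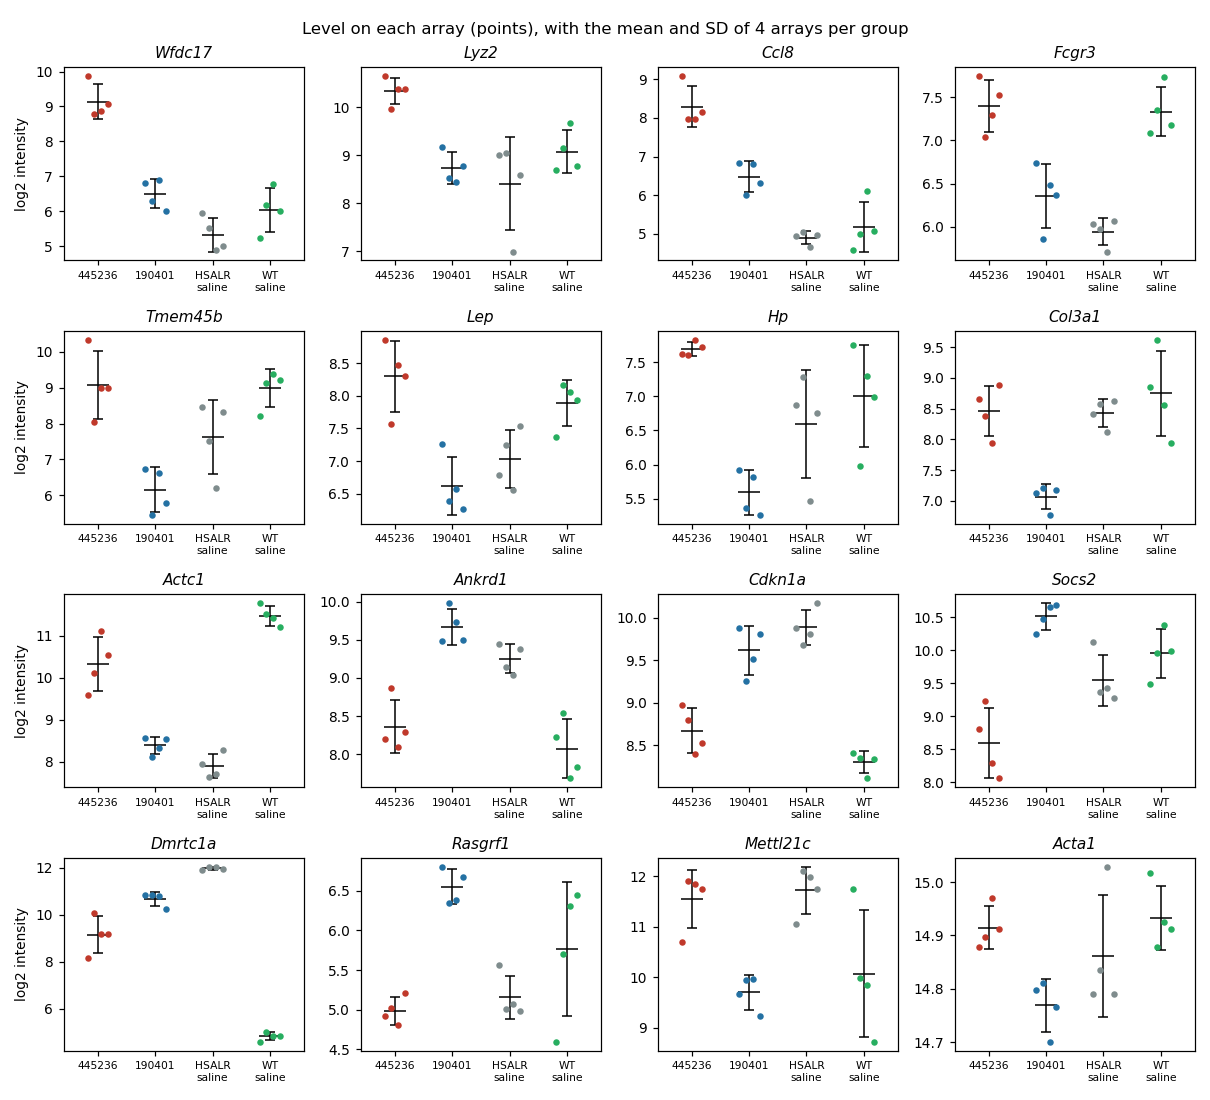
Each panel gives the log2 intensity of 1 gene (y axis) on the 4 arrays of each group (x axis), as points, with the mean and SD as black bars. In Wfdc17, Lyz2, Ccl8 and Fcgr3 all ASO 445236 arrays lie above all ASO 190401 arrays, in Ankrd1, Cdkn1a and Socs2 all lie below, and in Mettl21c both groups of chip 1 lie high.

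Extracellular matrix genes were the second group. Of 21 measured interstitial collagens and matrix proteins 5 were called higher (Col6a1, Col5a1, Col3a1, Sparc and Thbs2) and 0 lower, with a median difference of 0.44. Of 20 measured genes of collagen processing and matrix enzymes 5 were called higher (Mmp14, Pcolce, Loxl1, Timp2 and Mmp2) and 0 lower. At an unadjusted limma p under 0.05, 13 and 7 members of these lists were higher and 1 and 3 lower, where 8.7% of all genes were higher and 8.56% lower. The first count of calls was 3 without ASO 445236 replicate 4, ASO 190401 replicate 1, ASO 190401 replicate 3 or ASO 190401 replicate 4, and 3 without an intensity trend or at an adjusted p under 0.01. The second was 3 without ASO 445236 replicate 1, and 1 without ASO 445236 replicate 4, ASO 190401 replicate 2 or ASO 190401 replicate 4. It was 2 with median scaling, 3 with the authors' deposited processed values, without an intensity trend or with position on the chip as a covariate, and 1 at an adjusted p under 0.01.

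Col3a1, the chain of type III collagen, stood at 8.66, 8.38, 7.95 and 8.88 under ASO 445236 and at 7.12, 7.21, 6.77 and 7.19 under ASO 190401. The groups did not overlap, and the difference was 1.39 ± 0.26, or 2.63-fold (limma adjusted p = 0.00643). HSALR saline arrays at 8.41, 8.57, 8.12 and 8.62 shared the range of ASO 445236. Set beside saline, Col3a1 differed by 0.03 ± 0.26 under ASO 445236 (adjusted p = 0.956) and fell by 1.36 on the log2 scale under ASO 190401 (SE 0.26, adjusted p = 0.00143). The same layout held for Col6a1, a chain of type VI collagen, at 10.55 to 10.92 against 9.82 to 10.04. Its difference was 0.75 ± 0.12 (limma adjusted p = 0.00271), while it was -0.06 ± 0.12 against saline under ASO 445236. Col5a1, a chain of type V collagen that helps to start fibrils, was higher by 0.81 ± 0.14 (limma adjusted p = 0.00533). In these 3 collagens the values under ASO 190401, not those under ASO 445236, stood apart from HSALR saline, and the comparison of ASO 190401 with saline crosses chips.

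Mmp14, a membrane-bound matrix protease, differed from both. Its levels were 8.71, 8.22, 8.71 and 8.82 under ASO 445236, 7.57, 7.39, 8.01 and 7.52 under ASO 190401 and 8.03, 7.76, 7.62 and 7.98 in HSALR saline. It was higher under ASO 445236 than under ASO 190401 by 1.0 ± 0.16 (limma adjusted p = 0.00231) and than saline by 0.77 ± 0.16 (adjusted p = 0.00246), while ASO 190401 and saline differed by -0.22 ± 0.16 (adjusted p = 0.378). Nid1, or nidogen, a linker protein, was the 1 of 10 measured basement membrane genes called, at 0.56 ± 0.11 (limma adjusted p = 0.0116).

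Of 11 measured fibroblast markers 4 were called higher (Mfap5, Serpinf1, Pi16 and Scara5) and 0 lower, where 1.8% and 0.986% of all genes were. The list's median was 0.52, and 7 markers were higher and 0 lower at an unadjusted limma p under 0.05. Their mean level ran from 8.72 to 9.25 on ASO 445236 arrays, from 8.47 to 8.55 on ASO 190401 arrays and from 8.34 to 8.68 on HSALR saline arrays. That count was 0 without ASO 445236 replicate 1, ASO 445236 replicate 4, ASO 190401 replicate 1 or ASO 190401 replicate 4, 1 without ASO 190401 replicate 2 and 2 without ASO 190401 replicate 3. It was also 0 with median scaling, without an intensity trend, with position on the chip as a covariate or at an adjusted p under 0.01, and 1 with the authors' deposited processed values or with the 8 oligo arrays alone. Of 15 endothelial and 11 smooth muscle and pericyte markers 0 were called, 0 had an unadjusted limma p under 0.05, and their medians were -0.18 and -0.25. Whether the share of these cells differed was not tested.

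Genes of fat cells were the third group, and 1 array stood out in them. Of 10 measured adipocyte markers 2 were called higher (Lep and Cidea) and 0 lower, where 1.8% and 0.986% of all genes were. The higher count was 1 with probes detected on all 8 oligo arrays or at an adjusted p under 0.01. The list's median was 0.74, and 7 markers were higher and 0 lower at an unadjusted limma p under 0.05. Their mean level was 10.82, 9.76, 10.25 and 10.23 on the ASO 445236 arrays, so that replicate 1 was the highest, and 9.79, 9.43, 9.35 and 9.33 on the ASO 190401 arrays. HSALR saline arrays lay between 9.37 and 9.88 and WT arrays between 10.01 and 10.56. The ranges of the oligos overlapped, since ASO 445236 replicate 2 lay below ASO 190401 replicate 1. Replicate 1 of ASO 445236 was also the highest of the 8 in the 7 measured erythroid and platelet markers, at 8.96 against 6.85 to 8.20 on the other ASO 445236 arrays and 6.90 to 7.18 on the ASO 190401 arrays. HSALR saline arrays ran from 7.29 to 7.93 in these markers and WT arrays from 6.96 to 9.45. Of these 7 markers 0 were called, with a median of 0.88, and 1 was higher and 1 lower at an unadjusted limma p under 0.05. Fabp4 and Retn, 2 defining adipocyte markers, were detected on 0 of 16 arrays. The part of fat and blood in the results was not tested.

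Tmem45b, a transmembrane protein, had the largest difference of all called genes. It stood at 10.34, 8.04, 8.98 and 8.98 under ASO 445236 and at 6.73, 5.45, 6.63 and 5.79 under ASO 190401. The difference was 2.93 ± 0.47, or 7.64-fold (limma adjusted p = 0.00259), and 2.52 without ASO 445236 replicate 1, which is the highest array. HSALR saline stood at 8.45, 7.51, 6.21 and 8.32, with 2 arrays inside the range of ASO 445236, 1 inside that of ASO 190401 and 1 between them. Against saline it was higher by 1.46 ± 0.47 under ASO 445236 (adjusted p = 0.0458) and fell by 1.47 on the log2 scale under ASO 190401 (SE 0.47, adjusted p = 0.0413).

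Lep, which encodes the fat-cell hormone leptin, stood at 8.86, 7.56, 8.48 and 8.31 under ASO 445236 and at 7.27, 6.39, 6.57 and 6.26 under ASO 190401. The groups did not overlap, and the difference was 1.68 ± 0.27 (limma adjusted p = 0.00279), or 1.5 without ASO 445236 replicate 1. Cidea, a protein of lipid droplets, was at 9.11, 6.78, 7.42 and 7.66 against 5.33, 6.26, 5.42 and 5.55, a difference of 2.10 ± 0.43 (limma adjusted p = 0.0134) that was 1.64 without ASO 445236 replicate 1. Arxes2, a gene of the adipocyte-related X-linked family, was higher by 1.96 ± 0.37 (limma adjusted p = 0.00658), or 1.56 without that array.

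Angptl4, an inhibitor of lipoprotein lipase, did not turn on replicate 1. It was at 7.66, 7.66, 7.26 and 7.83 under ASO 445236 and at 5.82, 5.27, 6.10 and 6.56 under ASO 190401, and its difference was 1.67 ± 0.30 (limma adjusted p = 0.00551), or 1.65 without that array. Hp, or haptoglobin, a haemoglobin-binding plasma protein made in liver and fat, was at 7.61, 7.60, 7.83 and 7.71 against 5.92, 5.37, 5.83 and 5.26. The ASO 445236 arrays spanned a narrow range well above the others, with a difference of 2.09 ± 0.34, or 4.26-fold (limma adjusted p = 0.00279). Its 2 other probes gave 1.10 and 1.51, and HSALR saline arrays were spread from 5.47 to 7.29. Serpina3n, a protease inhibitor, was the other of 6 measured liver and plasma protein genes that was called, at 0.66 ± 0.13 (adjusted p = 0.00873), and did not pass within chips (adjusted p = 0.0977). The count of this list was 1 with probes detected on all 8 oligo arrays. Alb, the defining liver gene, was detected on 0 of 16 arrays. Nnat, or neuronatin, an imprinted gene of membranes, was detected on 4 ASO 445236 arrays and 0 ASO 190401 arrays, which makes it at least 1.76-fold higher (limma adjusted p = 0.00525). For such a bound, each array of the dim group was given the gene's own signal or the lowest signal of any detected probe, whichever was higher, and the group means were then compared.

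**Figure D3:**
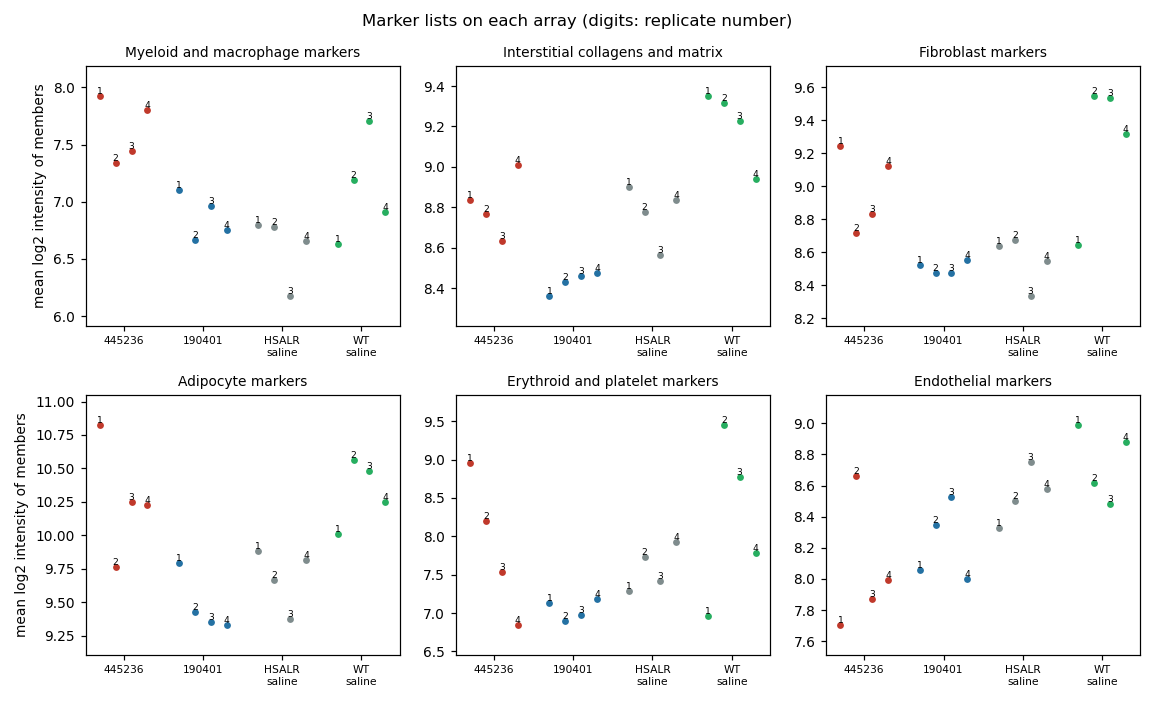
Each panel gives the mean log2 intensity of the measured members of 1 marker list (y axis) on every array of the 4 groups (x axis), and digits are replicate numbers. All ASO 445236 arrays lie above all ASO 190401 arrays for myeloid markers, interstitial collagens and fibroblast markers, and ASO 445236 replicate 1 is the highest oligo array for adipocyte and erythroid markers.

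Muscle genes that respond to regeneration, denervation or load went both ways. Of 14 measured, with a median of -0.32, 1 was called higher (Actc1) and 2 lower (Ankrd1 and Cdkn1a), where 1.8% and 0.986% of all genes were. All 3 were called without each of the 8 oligo arrays in turn and in the other settings tried. In all 3 the ASO 445236 values lay on the side of the WT values.

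Actc1, the cardiac actin that skeletal muscle makes before birth, stood at 9.59, 10.11, 11.10 and 10.54 under ASO 445236 and at 8.58, 8.12, 8.33 and 8.54 under ASO 190401. HSALR saline arrays were at 7.94, 7.65, 7.71 and 8.29, and WT arrays at 11.78, 11.51, 11.42 and 11.20. The ASO 445236 arrays lay between the saline groups without reaching WT, and the ASO 190401 arrays lay near HSALR saline, with 1 saline array inside their range. The difference between the oligos was 1.95 ± 0.23, or 3.85-fold (limma adjusted p = 0.000157), and a second Actc1 probe gave 1.87 ± 0.22. Against HSALR saline, Actc1 differed by 2.44 ± 0.23 under ASO 445236 (adjusted p = 7.93e-07) and by 0.49 ± 0.23 under ASO 190401 (adjusted p = 0.165).

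Ankrd1, an ankyrin repeat protein that muscle induces under mechanical stress, was at 8.20, 8.86, 8.10 and 8.29 under ASO 445236 and at 9.48, 9.98, 9.73 and 9.5 under ASO 190401. The 2 groups were clearly parted. The gene was lower under ASO 445236, with a difference of -1.31 ± 0.18 (limma adjusted p = 0.000709) and -2.49 ± 0.26 within chips (adjusted p = 2.22e-06). Cdkn1a, which encodes the cell cycle inhibitor p21, was at 8.98, 8.79, 8.40 and 8.52 against 9.88, 9.25, 9.52 and 9.80. WT arrays lay from 8.11 to 8.41 and HSALR saline arrays from 9.68 to 10.17, so that ASO 445236 lay nearer to WT and ASO 190401 overlapped HSALR saline. The difference was -0.94 ± 0.15 (limma adjusted p = 0.00225), and its other probes gave -1.05 and -0.97.

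Ntrk2, the receptor of brain-derived neurotrophic factor, was the 1 of 14 measured genes of neurotrophin receptors and the neuromuscular junction called higher. It was at 7.46, 6.65, 6.94 and 7.26 under ASO 445236, 6.41, 5.38, 5.76 and 6.17 under ASO 190401 and between 5.47 and 6.06 in HSALR saline. The ASO 190401 arrays overlapped saline, and the difference between the oligos was 1.15 ± 0.22 (limma adjusted p = 0.0071).

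Growth hormone and insulin-like growth factor genes included the largest lower value. Of 17 measured, 2 were called higher (Igfbp4 and Igf1) and 1 lower (Socs2), where 1.8% and 0.986% of all genes were. The higher count was 1 without any of 5 of the 8 oligo arrays (ASO 445236 replicates 1 and 4 and ASO 190401 replicates 2, 3 and 4), with those 8 arrays alone or at an adjusted p under 0.01. The lower count was 2 with the 8 oligo arrays alone. Socs2, a suppressor of growth hormone signalling, was at 8.81, 9.24, 8.3 and 8.06 under ASO 445236 and at 10.24, 10.47, 10.65 and 10.68 under ASO 190401. HSALR saline arrays at 10.12, 9.36, 9.43 and 9.28 lay between the oligos. The difference was -1.91 ± 0.23, or 3.75-fold lower (limma adjusted p = 0.000157). Against HSALR saline, ASO 445236 differed by -0.94 ± 0.23 on the same chip (limma adjusted p = 0.00915). ASO 190401 differed by 0.96 ± 0.23 across chips (adjusted p = 0.00775), where chip and oligo cannot be told apart. The within-chip contrast was -1.5 ± 0.32 (adjusted p = 0.00338). Igfbp4, a carrier protein that limits the action of insulin-like growth factors, was higher by 0.61 ± 0.11 (limma adjusted p = 0.00658), while its other probe gave 0.31 and was not called.

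Several genes with large lower values were ones in which HSALR saline and WT differed strongly. Dmrtc1a, of the DMRT family, was at 8.17, 10.09, 9.19 and 9.18 under ASO 445236 and at 10.84, 10.84, 10.80 and 10.23 under ASO 190401, while HSALR saline arrays were between 11.90 and 12.05 and 0 of 4 WT arrays detected it. Every array of ASO 445236 lay below every array of ASO 190401, and these lay below every HSALR saline array. The difference between the oligos was -1.52 ± 0.25 (limma adjusted p = 0.00338), and -1.53 with the authors' deposited processed values (adjusted p = 0.175). Arhgap8 had the same order, at 5.97, 6.29, 6.63 and 5.99 against 7.49, 7.59, 8.08 and 6.76, with HSALR saline from 8.61 to 9.19 and 0 of 4 WT arrays detecting it. Its difference was -1.26 ± 0.22 (limma adjusted p = 0.00525), and -1.32 with the authors' deposited processed values (adjusted p = 0.23). H2ac10, a histone H2A gene, was lower by 0.90 on the log2 scale (difference -0.90 ± 0.18, limma adjusted p = 0.00924), at 7.74 to 8.18 against 8.39 to 9.35, with HSALR saline from 10.35 to 10.55 and WT from 6.43 to 7.03. Histone H2A genes are nearly alike in sequence, so its probe may read more than 1 of them. Golt1a, a Golgi transport protein, differed by -0.91 ± 0.17 (limma adjusted p = 0.00643), and by -2.12 with the authors' deposited processed values (adjusted p = 0.0752).

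Rasgrf1, an imprinted exchange factor of Ras, had another order of groups. It was detected on 0 of 4 ASO 445236 arrays, 4 of 4 ASO 190401 arrays, 1 of 4 HSALR saline arrays and 3 of 4 WT arrays. It was at least 2.32-fold lower under ASO 445236 (limma adjusted p = 0.00643), but the call, though not the direction, was lost within chips (adjusted p = 0.125) and with the authors' deposited processed values (0.231). A second Rasgrf1 probe gave -0.99 and was not called (limma adjusted p = 0.06).

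Over all 243 called genes, 170 (70%) had an HSALR saline minus WT difference of the opposite sign, against 47.1% of all 8725 genes. These 2 differences share no array but split the same 2 chips. Among the 157 genes higher under ASO 445236, 119 were lower in HSALR saline than in WT and 38 higher, and among the 86 lower genes 51 were higher in HSALR saline and 35 lower. In 77 of the 170 the saline difference was itself called, where 26.7% of all genes were. A constant chip offset would add to both differences with the same sign, but the sign of each also depends on the groups compared. These shares therefore do not measure a chip effect, and its part was not tested. Among the called genes of the same sign (38 higher and 35 lower), 28 had a called saline difference, also a larger share than 26.7%. The share of opposite signs was 60.8% without ASO 445236 replicate 1.

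Mettl21c, a muscle lysine methyltransferase, was the largest of those 28. It was at 10.70, 11.91, 11.86 and 11.76 under ASO 445236, 11.05, 12.10, 11.99 and 11.75 in HSALR saline, 9.66, 9.94, 9.97 and 9.23 under ASO 190401 and 11.75, 9.98, 9.84 and 8.72 in WT. Arrays of chip 1 were thus high and 7 of the 8 arrays of chip 2 low, while WT replicate 1 lay among those of chip 1. Each group lies on 1 chip, so chip and group cannot be told apart for this gene. The difference between the oligos was 1.86 ± 0.43 (limma adjusted p = 0.0236), lost without any of 6 of the 8 oligo arrays, and the within-chip contrast was 0.20 ± 0.60 (adjusted p = 0.874).

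The within-chip contrast called 1419 of 8725 genes (16.3%), 705 higher (8.08%) and 714 lower (8.18%). At the level of probes it called 1905 (15.4%), 960 higher (7.76%) and 945 lower (7.64%). It contains the saline difference, in which 26.7% were called. Of the 243 genes called between the oligos, it called 176 in the same direction and 0 in the opposite one, and 67 were not called. The contrast is the direct difference plus the turned saline difference. Agreement in direction is therefore favoured by construction and gives no independent support, and genes with opposite signs are enlarged. Sgk1, a kinase induced by glucocorticoids and insulin, and Mlxipl, the glucose-sensing factor ChREBP, were among the 67. Sgk1 was at 13.69, 14.08, 14.10 and 13.96 under ASO 445236 and at 13.42, 13.19, 13.32 and 13.55 under ASO 190401, a difference of 0.59 ± 0.11 (limma adjusted p = 0.00652) and of 0.28 ± 0.15 within chips (adjusted p = 0.251). Mlxipl differed by -0.69 ± 0.12 (limma adjusted p = 0.00468) and by -0.14 ± 0.17 within chips (adjusted p = 0.642).

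**Figure D4:**
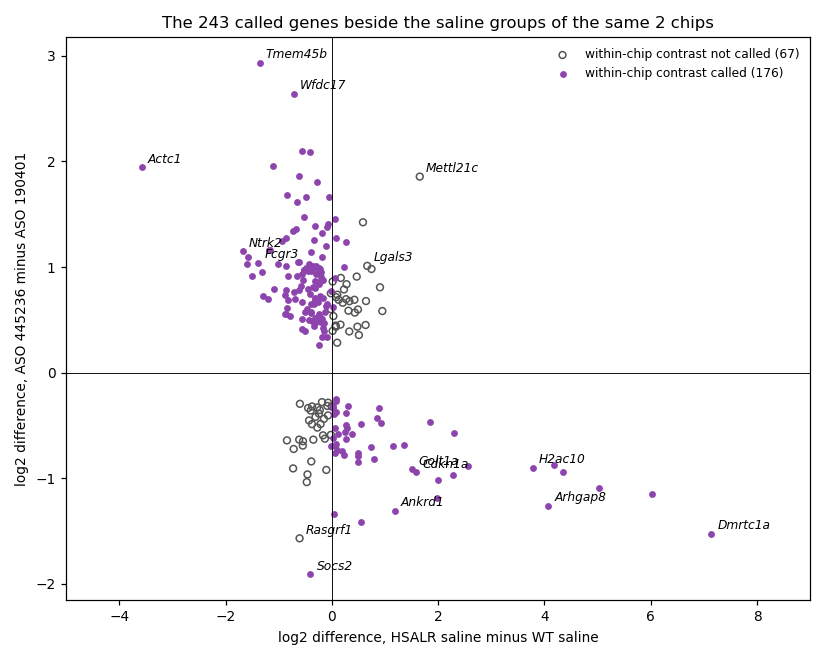
Each point is 1 of the 243 genes called between the oligos, with the HSALR saline minus WT saline difference on the x axis and the ASO 445236 minus ASO 190401 difference on the y axis, both log2. Filled points are the 176 genes also called in the within-chip contrast, open points the 67 that were not. Actc1 lies far left and high, Dmrtc1a far right and low, and Mettl21c in the upper right.

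Genes tied by textbook knowledge to myotonic dystrophy or to the decay of RNA did not pass the test between the oligos. Acta1, the mouse skeletal actin, was at 14.88, 14.90, 14.97 and 14.91 under ASO 445236 and at 14.80, 14.81, 14.70 and 14.77 under ASO 190401. The groups did not overlap, but the difference of 0.15 did not pass the test (limma adjusted p = 0.224, 95% interval 0.021 to 0.27). Whether its probe also reads the human transgene is not known here. Clcn1, the chloride channel of muscle whose splicing is disturbed in myotonic dystrophy, was at 7.31, 7.81, 7.85 and 7.64 against 7.48, 7.84, 7.85 and 7.58, nearly the same 4 values. Its difference of -0.03 had a 95% interval of -0.36 to 0.29 (limma adjusted p = 0.941). Both oligos stood above HSALR saline, ASO 445236 by 0.75 ± 0.16 (limma adjusted p = 0.00331) and ASO 190401, across chips, by 0.78 ± 0.16 (adjusted p = 0.00235). A second Clcn1 probe gave -0.21 between the oligos (limma adjusted p = 0.561). The muscleblind genes Mbnl1 and Mbnl2 differed by -0.07 (95% interval -0.26 to 0.13) and -0.10 (95% interval -0.28 to 0.080). Rnaseh1, which cuts RNA paired with DNA, differed by -0.29 (95% interval -0.70 to 0.12). For these 5 genes a p that misses the threshold does not show that the oligos act alike. Of 16 measured genes of RNase H and nuclear RNA decay, Rnaseh1 among them, 0 were called. At an unadjusted limma p under 0.05, 0 of these 16 were higher and 3 lower, where 8.56% of all genes were lower.

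Of 13 measured atrophy, FoxO and myostatin genes 2 were called lower (Fbxo30 and Fbxo31, 15.4%), where 0.986% of all genes were. This count was 1 to 3 with 1 oligo array left out and 0 to 4 in the other settings. A second Fbxo31 probe gave -0.09 (limma adjusted p = 0.814). The lists that follow held calls at a share near the 2.79% of all genes or at 0. In lists of this length that is no result about them. Of 13 slow and 15 fast fibre genes 0 were called, as of 23 ion channel and calcium genes, 28 of oxidative phosphorylation, 21 of glycolysis, 21 ribosomal and 21 proteasome genes. Of 21 RNA-binding proteins of splicing 1, Srsf1, was called lower, while its second probe gave -0.14 and was not called (limma adjusted p = 0.515). The count was 0 without any of 7 of the 8 oligo arrays and 3 without ASO 445236 replicate 2. It was 0 in 8 of the 14 other settings. Of 16 heat shock genes and 17 of the unfolded protein response 0 were called. At an unadjusted limma p under 0.05, 8.7% of all genes were higher and 8.56% lower. By that measure the slow fibre list had 0 members higher and 1 lower, the fast fibre list 3 and 1 and ion channels 2 and 1. Oxidative phosphorylation had 0 and 1, glycolysis 1 and 1, ribosomal proteins 1 and 3 and the unfolded protein response 1 and 2. The proteasome, heat shock and atrophy lists each had 0 and 4. The lower share passed 8.56% in the ribosomal, unfolded protein, proteasome, heat shock and atrophy lists. The higher share passed 8.7% in the fast fibre list. Leaving out 1 oligo array brought 1 call each in the fast fibre, ion channel, ribosomal, proteasome and heat shock lists: without ASO 190401 replicate 1 for fast fibre and heat shock, ASO 445236 replicate 1 for ion channels and the proteasome, and ASO 445236 replicate 2 for ribosomal proteins. In all, 29 of 48 lists held a called member, 20 of them only higher ones, and 65 of the 243 called genes were in a list.

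**Figure D5:**
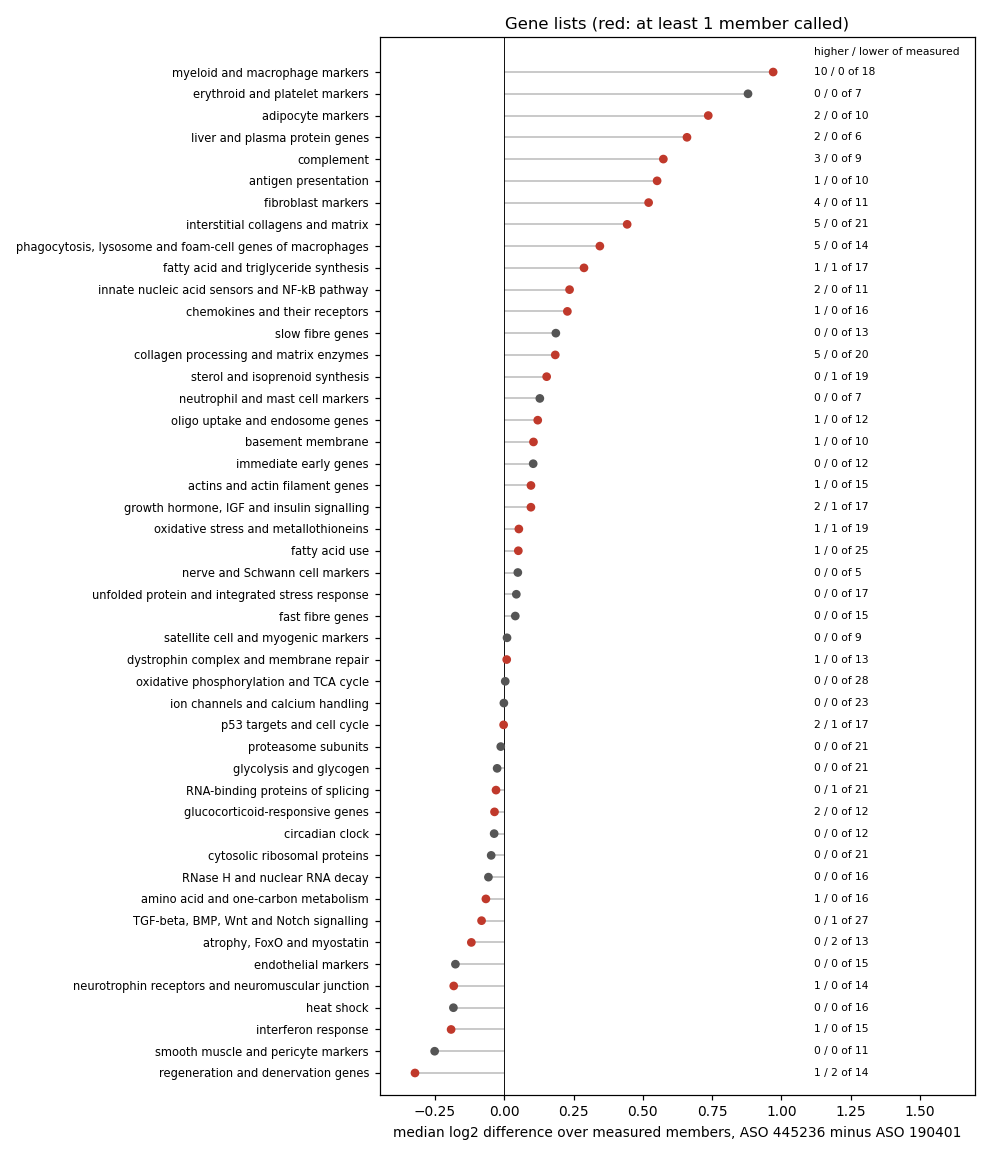
Each dot is the median log2 difference ASO 445236 minus ASO 190401 (x axis) over the measured members of 1 gene list (y axis). Text at the right gives members called higher, called lower and measured, and red marks lists with a call. Myeloid and macrophage markers lie at the top at 0.97 with 10 of 18 called higher, and regeneration and denervation genes at the bottom at -0.32.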

How the data were processed

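Total RNA of mouse quadriceps was labelled with biotin by a service laboratory and hybridised to Illumina bead arrays, as the labels' protocols say. Each of 25697 probes has an intensity and a detection p-value per array in the non-normalized table the authors deposited. Between 6907 and 7499 intensities per array lay below 0, which shows an earlier background subtraction whose method is not stated in the sources. Of its cells, 60 were not numbers (14 in WT replicate 1, 46 in ASO 190401 replicate 4) and were treated as missing. This touched 11 tested genes in ASO 190401 replicate 4 and 0 of the genes named here. The authors also deposited a processed intensity table, linear and with medians per array between 26.4 and 26.5; how it was made is not stated beyond a tool name in the submitters' processing notes, and it was used as an alternative.

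The analysis used limma 3.58.1 under R 4.3.3. Background was corrected by normexp from the detection p (offset 16), and intensities were quantile normalized over 16 arrays and put on the log2 scale. A linear model of the 4 group means, with 12 residual degrees of freedom, gave moderated tests, two-sided and with a trend by intensity, with Benjamini-Hochberg adjustment. The fit was tested on simulated data. GEO's platform annotation names 23978 probes, of which 23962 matched a RefSeq table of GRCm38.p6. Of the tested genes, 7099 matched a RefSeq promoter window. Replicate numbers follow accession order. Genes named in the text come from the 15 largest called differences each way without overlap, up to 6 called members (or 2 with the smallest p) of each of 48 lists, and a fixed few. The comparison, its lists and this rule were chosen with earlier results of these data known. Alternatives covered scaling, background, filters, probe summary, the intensity trend, the arrays in the fit, array weights, chip position, threshold, the within-chip contrast and leaving out each array.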

Additional observations from a re-analysis of the deposited data

Results flagged for a closer look

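In 6 of 84 groups of 4 values examined (40 genes and 2 array measures, in each oligo group), 1 array lay apart from the other 3, its gap to the nearest being larger, as a share of the group's range, than Dixon's 95% critical value. Chance gives about 1 in 20 such groups. Under ASO 445236, Ccl8 was high at 9.08 on replicate 1, where the other arrays lay between 7.96 and 8.15. Hal was high at 8.28 and Lgals3 at 10.83 on replicate 4, against 7.75 to 7.80 and 10.42 on the others. Mettl21c was low at 10.70 on replicate 1, against 11.76 to 11.91. The raw 75th percentile of intensity was low at 132.9 on replicate 2, against 148.5 to 151.7. Under ASO 190401, Dmrtc1a was low at 10.23 on replicate 4, against 10.80 to 10.84.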

How the results depend on the processing

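No paired analysis was possible because the labels give no replicate numbers, so arrays of the 2 oligos share none. Of the 35 called genes given with values of their own, 20 were called under every alternative that could give a value. Of the same 35, 15 were lost under at least 1 alternative and 0 changed direction. Without each oligo array in turn 34 of them were called, Mettl21c being the exception. Called list members that are only named are not among the 35. Many of those calls were lost without 1 array, as the list counts above show. With the authors' deposited processed values 131 probes were called higher and 72 lower (101 and 54 genes), against 199 and 114 (157 and 86 genes) as reported. Without a filter on dim probes 71 probes and 52 genes were called lower, and the share of opposite signs was 77.4%. With array weights 375 probes were higher and 248 lower (293 and 185 genes), and the share was 62.3%. At an adjusted p under 0.01, 63 probes were higher and 22 lower (50 and 16 genes), the share was 77.3%, and the within-chip contrast called 475 and 491 probes against 960 and 945. Taken in place of the direct difference, the within-chip contrast called 960 probes higher and 945 lower (705 and 714 genes); it contains the saline difference by construction. Leaving out 1 oligo array gave 81 to 192 probes higher and 42 to 133 lower, 64 to 155 genes higher and 33 to 96 lower, a share of 60.8% to 77.1%, and a raw 75th percentile difference of -25.9 to -8.22, past its threshold without ASO 190401 replicate 4. Leaving out any of the 16 arrays gave 777 to 1078 and 776 to 1052 probes in the within-chip contrast. Clcn1 turned to 0.45 and Mbnl2 to 0.039 within chips. With 1 oligo array left out, Clcn1 ranged from -0.10 to 0.080 and Mbnl1 from -0.14 to 0.021; Clcn1 was above 0 without ASO 445236 replicate 1 (0.080) and ASO 190401 replicates 2 and 3 (0.017 and 0.019), and Mbnl1 without ASO 445236 replicate 1. These 3 genes were not called. The cause of these shifts was not tested. Probes near background limit small differences: 9 genes called higher were below background on all ASO 190401 arrays and 5 called lower on all ASO 445236 arrays.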
